A study of Mus musculus with 12 samples.

Results

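Schwann cells are the glia of peripheral nerve. In a muscle they wrap the motor and sensory axons that enter it, and those around larger axons build myelin, the layered membrane that lets impulses travel fast. The transcription factor Sox10 keeps Schwann cell identity and, together with Egr2 (Krox20), switches on the myelin genes, among them Mbp, Pmp22 and Mag, while the calcium-binding protein S100b is widely used to mark the cells. The genes described here are those whose symbol is in a list of 7 Schwann cell and myelin genes, and 6 of the 7 have a named entry among the 23185 entries of the array table that carry 1 gene symbol. The remaining 1 has none and was not analysed here. These 6 genes were followed over 12 Affymetrix mouse gene arrays of skeletal muscle, to see whether IL-8 or KC given to mice changes the transcripts of nerve within the muscle.

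Of the 12 arrays, 5 came from mice given recombinant IL-8 (CXCL8), a human neutrophil-attracting chemokine, 4 from mice given recombinant KC (CXCL1), a mouse chemokine that uses the same receptor, and 3 from vehicle mice given 0.1% BSA. The chemokines were injected into the peritoneum at 50 µg/kg every other day for 6 days. The study's methods describe the IL-8 and vehicle mice as male C57BL/6J, 8 weeks old, with the tibialis anterior, a hindlimb muscle of mostly fast fibers, harvested on day 7. The sources used here do not give the age, strain and harvest day of the KC mice, and the labels name their tissue only as skeletal muscle. No genotype or transgene is named for any group, and whole muscle was used without sorting, so nerve was measured only as the little that runs inside it. Nothing in the labels says more than that the arrays are separate samples, so p-values measure the spread between these samples.

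Values are the deposited log2 values, 1 per gene and array, from robust multi-array averaging (RMA), and a difference of 1 is a doubling. Fast-muscle markers, 10 genes such as Ckm and Myh4, averaged 11.69 to 12.14 over the IL-8 arrays, 11.84 to 12.12 over the KC arrays and 11.91 to 12.06 over the vehicle arrays, so the muscle label held in all 12. Transcripts of liver were high in 3 arrays, IL-8 replicate 1 and vehicle replicates 2 and 4, where Alb (albumin) was at 7.71 to 10.15 against 3.14 to 5.36 in the other 9. Where leaving them out moved an estimate of the 6 genes by much, both values are given. The values carry no detection call, and 4 of the 6 genes (S100b, Sox10, Mag and Egr2) averaged at or below 3.38, the median over all entries, the range in which an array separates transcript from background least well.

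Pmp22 is known to be transcribed from alternative promoters, one of them used mainly by Schwann cells and another by many cell types, and the array table holds 1 value for the whole gene. The 250 bases upstream of 2 of its 4 RefSeq start sites are printed to show which separate starts that value joins, beside the same window of Mag, the only gene of the 4 searched in which a SOX-type word was found. The windows lie on GRCm38.p6 chromosome 11 at chr11:63128732-63128981 and chr11:63131207-63131456 (plus strand), and on chromosome 7 at chr7:30914923-30915172 (minus strand). Capitals mark the motif match in Mag, and the Pmp22 windows hold none.
Pmp22, start at 63128982: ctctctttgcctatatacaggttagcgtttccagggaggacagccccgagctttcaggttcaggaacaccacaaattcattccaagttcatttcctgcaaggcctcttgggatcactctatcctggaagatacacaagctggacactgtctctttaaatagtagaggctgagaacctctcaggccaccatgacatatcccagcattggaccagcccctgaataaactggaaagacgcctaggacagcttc
Pmp22, start at 63131457: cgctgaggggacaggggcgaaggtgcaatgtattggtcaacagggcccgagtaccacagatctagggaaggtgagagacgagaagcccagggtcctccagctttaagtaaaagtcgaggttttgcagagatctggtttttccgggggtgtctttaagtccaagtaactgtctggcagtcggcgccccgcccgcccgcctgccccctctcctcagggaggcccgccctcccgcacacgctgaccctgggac
Mag, start at 30914922: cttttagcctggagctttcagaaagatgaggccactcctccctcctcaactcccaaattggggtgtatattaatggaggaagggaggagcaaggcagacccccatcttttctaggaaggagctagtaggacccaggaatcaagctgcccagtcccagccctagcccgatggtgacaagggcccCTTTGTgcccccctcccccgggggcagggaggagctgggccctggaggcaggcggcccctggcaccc
The Pmp22 windows were 48.8% and 61.2% G and C. RefSeq promoter entries were matched by symbol for 4 of the 6 genes (Pmp22, S100b, Mag and Egr2, 13 windows). The words searched for, on both strands, were the SOX-type words ACAAAG and ACAATG and the EGR-type word GCGNGGGCG. ACAAAG occurred once upstream of Mag, on the opposite strand 62 to 67 bases before the start printed, and the windows of 2 of the 3 Mag starts share it. ACAAAG is present in 16.5% of all 32817 promoter windows of this length, ACAATG in 10.7% and GCGNGGGCG in 4.7%. A match is a description of letters only, and the other 11 windows held none of these words.

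None of the 6 genes was called in any comparison. A gene was called where its fold change reached 1.5 and its limma p, adjusted by Benjamini-Hochberg over all 23185 genes, was no higher than 0.1. In IL-8 against vehicle 0 of 6 were called, beside 2.55% of all genes (1.75% higher and 0.802% lower), and 1 of 6 had an unadjusted p under 0.05 beside 21.7% of all genes. In KC against vehicle 0 of 6 were called, beside 0% of all genes, and 0 of 6 passed the unadjusted p beside 3.98%. For IL-8 against KC 0 of 6 were called, beside 3.02%, and 0 of 6 passed the unadjusted p beside 19.8%. The methods' t-test and an exact permutation test, adjusted the same way, called 0 of all 23185 genes in each comparison, so their 0 of 6 says nothing about these genes. With the 3 arrays with liver transcripts left out, 0 of 6 were called in IL-8 against KC, where 1130 of all genes were. Against vehicle, which then has 1 array, 0 of all genes were called. In every comparison each of the 6 genes had overlapping groups. Groups did not overlap for 11% of all genes in IL-8 against vehicle, 4.94% in KC against vehicle and 6.68% in IL-8 against KC. With shares this low, 0 of 6 does not set these genes apart. The 2 chemokine comparisons with vehicle share the same 3 vehicle arrays.

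A difference that is not called need not be absent, so the intervals are given beside the count. They bound a change in the array value. For the 4 genes at or below the median over all entries (S100b, Sox10, Mag and Egr2) they need not bound the change in transcript. The 95% limits of the log2 fold change lay within a 1.5-fold change either way (0.58 on the log2 scale) for 5 of the 6 genes in each of the 3 comparisons. Pmp22 was the exception each time, with limits of -0.53 to 0.67 in IL-8 against vehicle, -0.62 to 0.42 in KC against vehicle and -0.26 to 0.61 in IL-8 against KC. The 6 genes had a median log2 fold change of -0.05 in IL-8 against vehicle, where all genes had -0.07. In KC against vehicle the medians were -0.05 for the 6 genes and -0.004 for all genes, and in IL-8 against KC they were -0.01 and -0.05. In bulk muscle, fewer Schwann cells and less RNA per Schwann cell cannot be told apart, and neither can opposite changes that cancel.

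**Figure D1:**
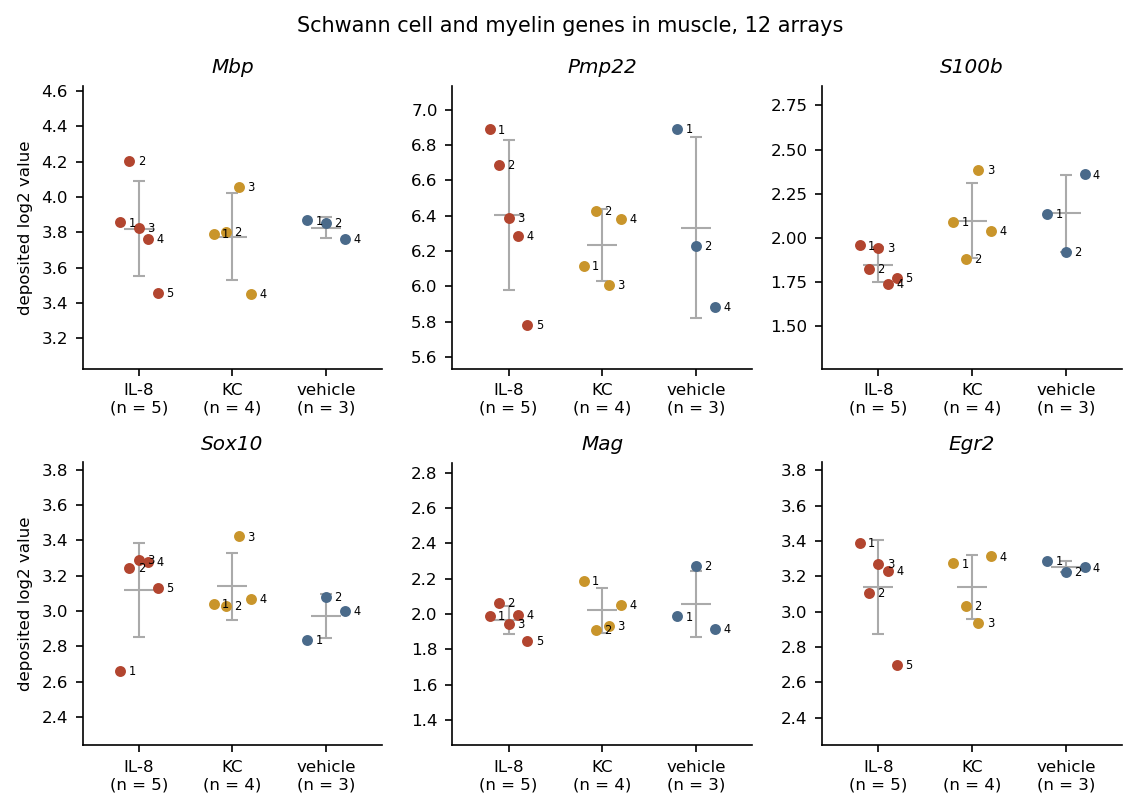
Deposited log2 value of each of the 6 genes in each array (points, numbered by replicate), for IL-8 (n = 5), KC (n = 4) and vehicle (n = 3), with grey bars for the mean ± SD. Each panel spans the same 1.6 log2 units, and the groups overlap in all 6 panels, with IL-8 replicate 5 the lowest IL-8 array for Mbp, Pmp22, Mag and Egr2.

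Mbp encodes myelin basic protein, which holds the inner faces of the myelin membrane together. Its log2 values were 3.86, 4.20, 3.83, 3.76 and 3.46 in IL-8 muscles, 3.79, 3.80, 4.05 and 3.45 in KC muscles, and 3.87, 3.85 and 3.76 in vehicle muscles. Both chemokine groups spread above and below the narrow vehicle range, with 1 array of each above it and 1 below it. The means were 3.82 ± 0.27 (SD, n = 5) for IL-8, 3.78 ± 0.25 (SD, n = 4) for KC and 3.83 ± 0.058 (SD, n = 3) for vehicle. The log2 fold change was -0.005 in IL-8 against vehicle (95% interval -0.35 to 0.34, limma adjusted p = 0.987), -0.05 in KC against vehicle and 0.05 in IL-8 against KC.

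Pmp22 encodes a tetraspan membrane protein of compact myelin, which fibroblasts and other cells also make, and its dosage underlies inherited neuropathies in humans. It was at 6.89, 6.69, 6.39, 6.29 and 5.78 in IL-8 muscles, 6.11, 6.43, 6.01 and 6.38 in KC muscles, and 6.89, 6.23 and 5.88 in vehicle muscles. Vehicle replicate 1 was as high as the highest IL-8 array, and vehicle replicate 4 was below every KC array. The spread within groups, 0.39 as a pooled SD, was larger than that of 90.2% of all genes. The log2 fold change was 0.07 ± 0.27 (SE) in IL-8 against vehicle (limma adjusted p = 0.892), -0.10 ± 0.23 in KC against vehicle (limma adjusted p = 0.994) and 0.17 ± 0.20 in IL-8 against KC (limma adjusted p = 0.670). Without the 3 arrays with liver transcripts the estimate against vehicle became -0.60 for IL-8 (limma adjusted p = 0.624) and -0.66 for KC, since the high vehicle replicate 1 then stood alone for its group and was assumed to vary like the other arrays.

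Mag encodes myelin-associated glycoprotein, an adhesion protein of the membrane next to the axon. Its values were 1.99, 2.06, 1.94, 2.00 and 1.84 in IL-8 muscles, 2.19, 1.91, 1.93 and 2.05 in KC muscles, and 1.99, 2.27 and 1.92 in vehicle muscles. All 12 lay within 0.42 log2 units of one another, and the pooled SD within groups of 0.13 was larger than that of only 9.23% of all genes. The log2 fold change was -0.09 in IL-8 against vehicle (95% interval -0.36 to 0.18, limma adjusted p = 0.677), -0.04 in KC against vehicle and -0.05 in IL-8 against KC (95% interval -0.27 to 0.16).

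S100b had the smallest p of the set in both IL-8 comparisons and was still not called. Its values were 1.96, 1.82, 1.94, 1.74 and 1.78 in IL-8 muscles, 2.09, 1.88, 2.38 and 2.04 in KC muscles, and 2.13, 1.92 and 2.36 in vehicle muscles. The IL-8 arrays were the low end of the range: 3 of 5 lay below every vehicle array and 3 of 5 below every KC array, while the others overlapped with vehicle replicate 2 and KC replicate 2. The mean was 1.85 ± 0.10 (SD, n = 5) in IL-8 muscles, 2.10 ± 0.21 (SD, n = 4) in KC muscles and 2.14 ± 0.22 (SD, n = 3) in vehicle muscles. In IL-8 against vehicle the log2 fold change was -0.29 ± 0.13 (SE), with a limma p of 0.0454 before and 0.222 after adjustment, and the two-sided exact permutation test over 56 splits gave p = 0.0536. Against KC it was -0.25 ± 0.12, with a limma p of 0.0519 before and 0.257 after adjustment and an exact permutation p of 0.0317 over 126 splits. In KC against vehicle it was -0.04 ± 0.17 (limma adjusted p = 0.994). The smallest p these splits allow is 0.0179 for IL-8 against vehicle, 0.0286 for KC against vehicle and 0.00794 for IL-8 against KC. Without the 3 arrays with liver transcripts the S100b estimate was -0.31 in IL-8 against vehicle (limma adjusted p = 0.611) and -0.28 in IL-8 against KC (limma adjusted p = 0.238), and without vehicle replicate 4 it was -0.18 in IL-8 against vehicle. After quantile normalization it was -0.13 in IL-8 against vehicle (limma adjusted p = 0.644) and -0.16 in IL-8 against KC (limma adjusted p = 0.483).

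The transcription factors also overlapped between groups. Sox10 was at 2.66, 3.25, 3.29, 3.28 and 3.13 in IL-8 muscles, 3.04, 3.03, 3.42 and 3.07 in KC muscles, and 2.84, 3.08 and 3.00 in vehicle muscles. Of the 5 IL-8 arrays, 4 lay above every vehicle array and 1, replicate 1, below them all. The log2 fold change was 0.15 (95% interval -0.20 to 0.50, limma adjusted p = 0.600) in IL-8 against vehicle, 0.17 (95% interval -0.17 to 0.51, limma adjusted p = 0.994) in KC against vehicle and -0.02 in IL-8 against KC. The low IL-8 array is one of the 3 with liver transcripts. Without those 3 the log2 fold change was 0.40 in IL-8 against vehicle (limma adjusted p = 0.480, 1 vehicle array left) and 0.30 in KC against vehicle (limma adjusted p = 0.996), and with them as a block it was 0.045 in IL-8 against vehicle (limma adjusted p = 0.940).

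Egr2, the factor that drives myelin genes and is also an immediate-early gene of other cells, was at 3.39, 3.10, 3.27, 3.23 and 2.70 in IL-8 muscles, 3.27, 3.03, 2.94 and 3.31 in KC muscles, and 3.29, 3.22 and 3.25 in vehicle muscles. The vehicle arrays lay close together, and the IL-8 and KC arrays extended above and below them. The mean was 3.14 in both IL-8 and KC muscles and 3.26 in vehicle muscles. The log2 fold change was -0.12 in IL-8 against vehicle (95% interval -0.46 to 0.23) and -0.12 in KC against vehicle (95% interval -0.44 to 0.21), and in IL-8 against KC the interval was -0.32 to 0.32. Without IL-8 replicate 5, the array at 2.70, the estimate in IL-8 against vehicle was -0.006.

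**Figure D2:**
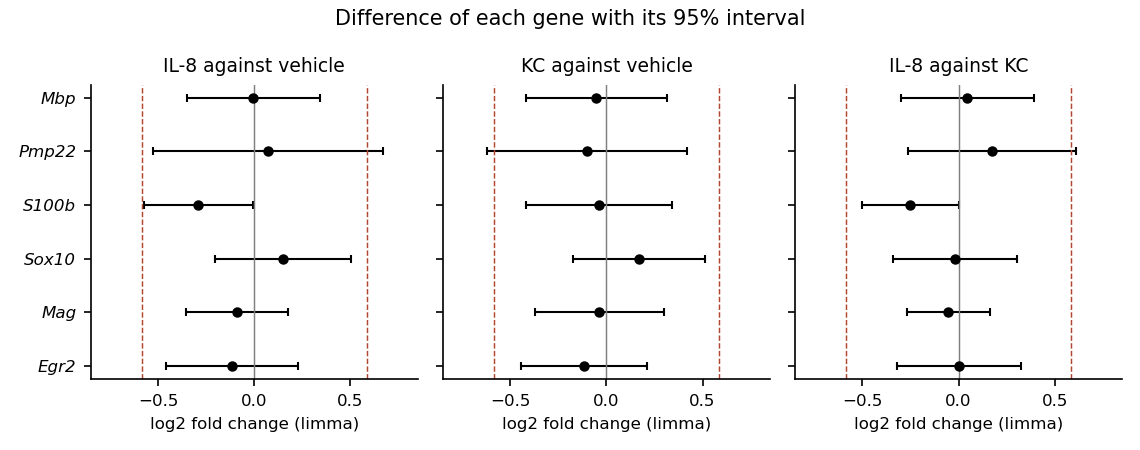
Log2 fold change of each of the 6 genes in each comparison (points) with its 95% interval from limma (bars), the first-named group over the second, with dashed lines at a 1.5-fold change either way. The points lie between -0.29 and 0.17, and only the Pmp22 bars cross a dashed line.

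No joint movement of the 6 genes from array to array was found, though 12 arrays and 4 dim genes limit what could be seen. Over the 15 pairs of genes and 12 arrays, Pearson's r was -0.49 to 0.56 with a median of 0.15, and 0 pairs had a permutation p under 0.05 before or after adjustment over the 15. The highest was Pmp22 with Egr2, at r = 0.56 (permutation p = 0.0564, adjusted p = 0.494) and Spearman's coefficient = 0.50 (permutation p = 0.103, adjusted p = 0.516), and r was 0.29 without the 2 arrays farthest from the median of Pmp22. The lowest was Pmp22 with Sox10, at r = -0.49 (permutation p = 0.100, adjusted p = 0.494) and a Spearman's coefficient of -0.36 (permutation p = 0.255, adjusted p = 0.638), and r was -0.42 without the 2 farthest arrays. Each gene was also centred and scaled by its SD, and the mean of the 6 was taken per array. That mean was -1.31 in IL-8 replicate 5 and between -0.36 and 0.48 in the other 11 arrays. Without IL-8 replicate 5 the median r over the 15 pairs was -0.06.

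The 10 genes outside the set whose values over the 12 arrays were most like that mean were Fdx1, Mtx2, Grb14, Dusp22, Kbtbd13, Adk, Aktip, Rbpms2, Chst10 and Arhgap24, with r from 0.87 to 0.94. Each of them was at its lowest in IL-8 replicate 5. Fdx1, which encodes a mitochondrial ferredoxin, was at 5.04 in that array and at 5.48 to 5.90 in the others, and its r was 0.94 with it and 0.77 without it. All 10 had a lower r without that array.

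The neighbours of these genes in the myelin programme were taken from 3 lists, 38 genes in all, of which 36 have a named entry. None was called in IL-8 against vehicle, beside 2.55% of all genes, with 2 higher and 4 lower at an unadjusted p under 0.05 (16.7% of the 36, beside 21.7% of all genes). None was called in KC against vehicle, beside 0% of all genes. There 1 was higher at the unadjusted p (2.78% of the 36, beside 3.98% of all genes). In IL-8 against KC 1 gene, Gap43, was called lower and 0 higher, beside 1.41% of all genes called lower and 1.61% called higher. At the unadjusted p 1 was higher and 2 lower (8.33% of the 36, beside 19.8% of all genes). The 36 had a median log2 fold change of -0.11 in IL-8 against vehicle (all genes -0.07), -0.04 in KC against vehicle (all genes -0.004) and -0.009 in IL-8 against KC (all genes -0.05).

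**Figure D3:**
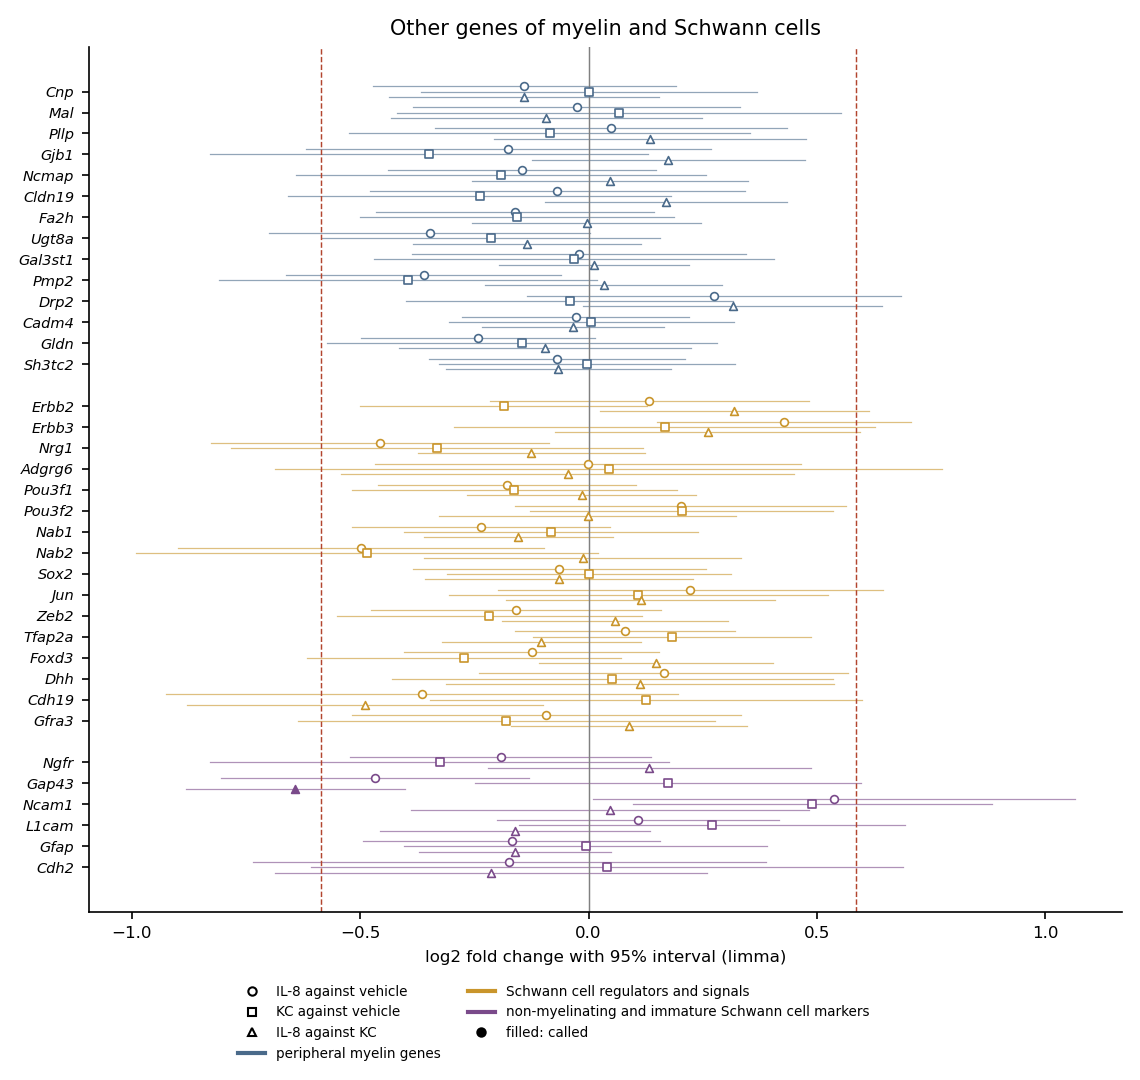
Log2 fold change with 95% interval (limma) of 36 further genes of peripheral myelin, of Schwann cell regulation and of non-myelinating or immature Schwann cells, with circles for IL-8 against vehicle, squares for KC against vehicle and triangles for IL-8 against KC. One symbol is filled, the call of Gap43 in IL-8 against KC, and the points range from -0.64 to 0.54.

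Of 14 peripheral myelin genes with an entry, 0 were called in any of the 3 comparisons, and 12 had a log2 fold change below 0 in IL-8 against vehicle (85.7%, beside 61.3% of all genes), 11 in KC against vehicle (78.6%, beside 50.9%) and 7 in IL-8 against KC (50.0%, beside 59.0%). The smallest p in IL-8 against vehicle was that of Pmp2, a fatty-acid-binding protein of myelin, whose values were 1.47, 1.52, 1.57, 1.39 and 1.57 in IL-8 muscles, 1.64, 1.23, 1.70 and 1.31 in KC muscles, and 1.60, 2.15 and 1.84 in vehicle muscles. Every IL-8 array was below every vehicle array, a pattern that 6.43% of all genes shared, and the KC arrays overlapped with both. Pmp2 differed by -0.36 in IL-8 against vehicle (limma adjusted p = 0.168) and by -0.39 in KC against vehicle (limma adjusted p = 0.994), on the log2 scale. Next came Ugt8a, which makes the galactolipids of myelin, at -0.35 in IL-8 against vehicle (limma adjusted p = 0.234). In KC against vehicle the second was Gjb1, the gap junction protein connexin 32, at -0.35 (limma adjusted p = 0.994). In IL-8 against KC the smallest p values were those of Drp2, a dystrophin-related protein of the Schwann cell surface, at 0.32 (limma adjusted p = 0.269), and Cldn19, a claudin of Schwann cell tight junctions, at 0.17 (limma adjusted p = 0.466). The lean of the 14 genes below 0 was not theirs alone. In IL-8 against vehicle 9 of 10 motor axon transcripts, 6 of 6 oligodendrocyte markers and 4 of 5 melanocyte markers were below 0. In KC against vehicle 8 of 10, 5 of 6 and 3 of 5 were. Several other lists also leaned below 0 in IL-8 against vehicle. They were the fibroblast (7 of 7), adipocyte (6 of 6), macrophage (9 of 10) and liver (8 of 8) markers. The endothelial (3 of 10), fast-muscle (5 of 10) and nerve-sheath (perineurial, 2 of 4) markers did not.

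Among 16 regulators and signals of Schwann cells 0 were called in any comparison. Erbb3, the receptor through which axonal neuregulin reaches Schwann cells, was at 3.68, 3.89, 3.86, 3.97 and 3.81 in IL-8 muscles, 3.88, 3.86, 3.44 and 3.15 in KC muscles, and 3.58, 3.47 and 3.20 in vehicle muscles. Every IL-8 array was above every vehicle array, as for 4.6% of all genes, while 2 KC arrays lay among the IL-8 arrays and 2 among or below the vehicle arrays. In IL-8 against vehicle Erbb3 had a log2 fold change of 0.43 ± 0.13 (SE), a fold of 1.35 that is under the limit of 1.5 (limma p = 0.00636, adjusted p = 0.116, exact permutation p = 0.0179, the smallest possible). It was 0.31 without the 3 arrays with liver transcripts (limma adjusted p = 0.606). Erbb2, its co-receptor, differed by 0.32 in IL-8 against KC (limma adjusted p = 0.215) and differed by 0.13 in IL-8 against vehicle (limma adjusted p = 0.639). Nrg1, which encodes their ligand neuregulin 1, was at -0.46 in IL-8 against vehicle (adjusted p = 0.160 by limma) with overlapping groups. Nab2, a corepressor that binds Egr proteins, was at -0.50 in IL-8 against vehicle (limma adjusted p = 0.159), -0.49 in KC against vehicle (limma adjusted p = 0.994) and -0.01 in IL-8 against KC. Vehicle replicate 2, an array with liver transcripts, was the highest of the 12 for Nab2, at 6.67. Foxd3, a neural crest factor, was at -0.27 in KC against vehicle (limma adjusted p = 0.994), and Cdh19, a cadherin of Schwann cell precursors, at -0.49 in IL-8 against KC (adjusted p = 0.161 by limma), with IL-8 replicate 5 the lowest array at 1.25.

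Gap43 was the 1 gene of the 3 lists to be called. It encodes a growth-associated protein of axon terminals that non-myelinating and denervated Schwann cells also make. Its log2 values were 2.86, 2.77, 2.79, 2.98 and 2.93 in IL-8 muscles, 3.50, 3.25, 3.65 and 3.64 in KC muscles, and 3.16, 3.12 and 3.73 in vehicle muscles. Every IL-8 array was below every KC array and every vehicle array, while KC and vehicle overlapped. A complete separation below the other group was shared by 4.2% of all genes in IL-8 against KC and by 6.43% in IL-8 against vehicle. In IL-8 against KC Gap43 fell to a mean of 2.87 ± 0.090 (SD, n = 5) in IL-8 muscles, against 3.51 ± 0.19 (SD, n = 4) in KC muscles, a log2 fold change of -0.64 ± 0.11 (SE) with a limma p of 9.1e-05, an adjusted p of 0.0642 and an exact permutation p of 0.00794, the smallest possible. In IL-8 against vehicle the log2 fold change was -0.47 ± 0.15 (limma p = 0.0114, adjusted p = 0.134, exact permutation p = 0.0179) and in KC against vehicle it was 0.17 ± 0.19 (limma adjusted p = 0.994).

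Gap43 averaged 3.20 over the 12 arrays, below the median of 3.38 over all entries, and its call depended on which arrays were kept, as did the calls over all genes. Without the array with liver transcripts in this comparison, IL-8 replicate 1, it was -0.64 with a limma adjusted p of 0.0417. It was lost, with adjusted p of 0.100 to 0.188, when KC replicate 3 or 4 or IL-8 replicate 2, 3, 4 or 5 was left out, while the log2 fold change stayed between -0.67 and -0.59. In those 6 settings 0 to 8 of all genes were called. Against vehicle the difference was -0.27 without vehicle replicate 4 and -0.29 without the 3 arrays with liver transcripts (limma adjusted p = 0.663). The neurons whose axons run in a nerve also make Gap43, and 10 transcripts of motor neurons such as Chat, Prph and Nefl were read beside it. None of the 10 was called in any comparison. Their mean was 2.73 to 2.79 over the IL-8 arrays, 2.63 to 2.98 over the KC arrays and 2.81 to 3.05 over the vehicle arrays. These means lie below the median of 3.38, where an array separates transcript from background least well, so they say little about the axons. The part of these transcripts in the Gap43 result was not tested.

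**Figure D4:**
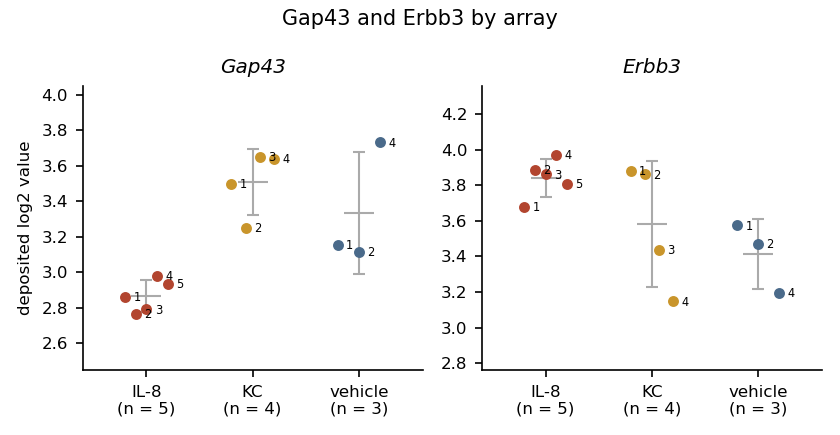
Deposited log2 value of Gap43 and Erbb3 in each array (points, numbered by replicate), for IL-8 (n = 5), KC (n = 4) and vehicle (n = 3), with grey bars for the mean ± SD. The IL-8 arrays sit at 2.77 to 2.98 for Gap43, below all KC and vehicle arrays, and at 3.68 to 3.97 for Erbb3, above all vehicle arrays but not all KC arrays.

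The other 5 markers of non-myelinating or immature Schwann cells were not called in any comparison. Ncam1, a neural adhesion molecule that regenerating muscle fibers also make, had log2 fold changes of 0.54 in IL-8 against vehicle (adjusted p = 0.225 by limma) and 0.49 in KC against vehicle (adjusted p = 0.994 by limma). Its values were 4.46, 5.03, 5.05, 5.20 and 4.20 in IL-8 muscles, 4.74, 4.92, 4.51 and 4.80 in KC muscles, and 4.33, 3.93 and 4.50 in vehicle muscles. Every KC array was above every vehicle array, as for 2.5% of all genes, and the IL-8 arrays overlapped with vehicle. Ngfr, the low-affinity neurotrophin receptor, was at -0.33 in KC against vehicle (limma adjusted p = 0.994).

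Cells other than Schwann cells can make some of these transcripts. Mbp and Mag are also made by oligodendrocytes of the central nervous system and Sox10 by melanocytes, and 0 of 6 oligodendrocyte markers and 0 of 5 melanocyte markers were called in any comparison. The oligodendrocyte markers, Mog and Mobp among them, averaged 2.40 to 2.56 over the IL-8 arrays, 2.49 to 2.58 over the KC arrays and 2.59 to 2.75 over the vehicle arrays. The melanocyte markers, Tyr and Dct among them, averaged 2.25 to 2.45 over the IL-8 arrays, 2.24 to 2.46 over the KC arrays and 2.29 to 2.77 over the vehicle arrays. Of 7 fibroblast markers, a cell type that makes Pmp22, 0 were called in any comparison, with a mean of 7.57 to 8.98 over the IL-8 arrays, 7.57 to 9.24 over the KC arrays and 8.50 to 8.77 over the vehicle arrays. All 7 were below 0 in IL-8 against vehicle (median -0.35) and in IL-8 against KC (median -0.34). Of 10 endothelial markers, 2 were called higher in IL-8 against vehicle (Vwf at 0.64 and Robo4 at 0.75), beside 1.75% of all genes. In IL-8 against KC 1 was (Robo4 at 0.61), beside 1.61%. In IL-8 against vehicle 7 of the 10 were above 0 and 3 below. At an unadjusted limma p under 0.05, 4 were higher and 1 lower. They averaged 5.46 to 5.85 over the IL-8 arrays and 5.06 to 5.63 over the KC arrays. The vehicle arrays held 5.96 in replicate 1, and 5.05 and 4.95 in replicates 2 and 4, which have liver transcripts. Of 6 adipocyte markers, 1 was called lower in IL-8 against vehicle (Fabp4 at -0.76), beside 0.802% of all genes. All 6 were below 0 in IL-8 against vehicle (median -0.41) and in KC against vehicle (median -0.43), and 3 of 6 in IL-8 against KC. Of 4 markers of perineurium, the sheath around nerve bundles, 0 were called in IL-8 against vehicle and in KC against vehicle. In IL-8 against KC 1, the tight junction gene Cldn1, was called lower, beside 1.41% of all genes. Its log2 fold change was -0.61 (limma adjusted p = 0.0933). The 4 averaged 3.48 to 3.69 over the IL-8 arrays and 3.60 to 3.85 over the KC arrays. The part of these cells in the values of the 6 genes was not tested.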

How the data were processed

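RNA of mouse skeletal muscle was hybridised to 12 Affymetrix mouse gene arrays. The authors deposited log2 values, which their processing notes credit to RMA (affy version 1.36.1, under R version 2.15.1). RMA is meant to equalise overall brightness between arrays, but the medians of the deposited values still differed. They were 3.32 to 3.38 over the IL-8 arrays, 3.31 to 3.44 over the KC arrays and 3.36 to 3.48 over the vehicle arrays. An offset between whole arrays may therefore remain in the differences. Results with quantile normalization and with centring on the array median are given below. The platform annotation gave names to the rows, which are Entrez numbers, and 2021 of the 25206 rows without a name entered only the setting that took every entry. The labels' RNA protocol describes human biopsies and does not match these mice.

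For each comparison limma 3.58.1 (lmFit and eBayes, R 4.3.3) was run on its 2 groups alone, without covariates. The limits for a call, an adjusted p (Benjamini-Hochberg) up to 0.1 with a fold change from 1.5, are those of the methods, whose GenePattern module was not run. The members, gene lists and tests were chosen with earlier results of these data known. Exact permutation tests were two-sided, counting splits whose absolute difference in means was at least the one observed, and correlations used 100000 permutations. Named genes were the listed genes, called genes of the 3 nerve lists or else the 2 smallest p per list and comparison, and the 10 genes most like the mean of the set. Nrg1 was named after its values were seen. Promoter windows came from RefSeq (GRCm38.p6). The fit was tested on simulated data. Alternatives were 14 other settings and leaving out each array in turn. Arrays give no sequencing depth, and their number limits the precision.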

Additional observations from a re-analysis of the deposited data

Results flagged for a closer look

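In groups of 4 or 5 arrays, a single array lay far from the others in 4 of 86 groups examined over the 6 genes, the mean of the 6 after scaling and the 3 nerve lists, where chance gives about 1 in 20. Sox10 was at 2.66 in IL-8 replicate 1, an array with liver transcripts, while the remaining IL-8 arrays held 3.13 to 3.29. Sox10 was also at 3.42 in KC replicate 3, while the remaining KC arrays held 3.03 to 3.07. Cnp, a myelin enzyme, was at 4.34 in IL-8 replicate 1, while the remaining IL-8 arrays held 3.83 to 3.95. Pllp, which encodes the myelin protein plasmolipin, was at 3.40 in KC replicate 2, while the remaining KC arrays held 2.83 to 2.88. The difference between the responses to the 2 chemokines, tested directly as IL-8 against KC, passed the limits for Gap43 of the nerve lists, at -0.64 on the log2 scale.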

How the results depend on the processing

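The count of 0 called among the 6 genes was the same in each comparison under all 14 other settings and without each array in turn, except that 4 of the 6 were not tested where dim genes were left out. Several of these settings called 0 of all genes, and there the count says nothing about the 6. Of the correlations, 0 of 15 pairs passed adjustment in any setting run. Deviations of same-numbered arrays from their group means correlated at -0.32 to 0.002 in IL-8 against vehicle and -0.17 to 0.36 in KC against vehicle. In IL-8 against KC the correlation was -0.36 to 0.12. With 3 or 4 pairs per comparison, these are too few to show whether the numbers pair the samples. With the number as a replicate block 0 nerve-list genes were called in IL-8 against KC. That count was 1 by the reported fit and 0 with dim genes left out, which removed Gap43 untested. It was also 0 with all 12 arrays in one fit and at an adjusted p of at most 0.05. By the unequal-variance t-test and the exact permutation test it was 0 as well. Without each array in turn it was 0 to 1. In IL-8 against vehicle it was 0 by the reported fit, 1 (Gap43, -0.60, limma adjusted p = 0.0483) with array weights and 0 to 2 without each array, the 2 being Nrg1 and Nab2 without vehicle replicate 1. Over all genes, the 592 calls in IL-8 against vehicle became 2 with quantile normalization and 944 without dim genes. They became 117 with all 12 arrays in one fit, 2083 with array weights and 2 at an adjusted p of at most 0.05. Calls were 0 by the Welch t-test, by the exact permutation test, with the replicate block and with a block for the arrays with liver transcripts. Without each array in turn they were 0 to 3338. The 0 calls in KC against vehicle became 0 to 92 without each array. The 700 calls in IL-8 against KC became 1 with all 12 arrays in one fit and 1193 with array weights. They became 1 at an adjusted p of at most 0.05 and 1147 with no fold minimum. They were 1130 without the arrays with liver transcripts or with a block for them, and 0 to 1741 without each array. By the unequal-variance t-test, by the exact permutation test and with the replicate block they were 0. The cause was not tested.

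Uncalled log2 fold changes near 0 changed sign in some settings. In IL-8 against vehicle these were Mbp at 0.039, Pmp22 at -0.059 and Mag at 0.069 with quantile normalization, Mbp at 0.089 and Mag at 0.0035 with centring on the array median, Mbp at 0.045 with array weights and 0.11 with the replicate block, and Pmp22 at -0.60 without the arrays with liver transcripts. In KC against vehicle these were S100b at 0.031 and Mag at 0.031 with quantile normalization, Mbp at 0.00031, S100b at 0.012 and Mag at 0.016 with centring, Pmp22 at 0.063 with array weights, and Mag at 0.035 with a block for the arrays with liver transcripts and without them. In IL-8 against KC these were Sox10 at 0.029 and Mag at 0.038 with quantile normalization, Sox10 at 0.022 with centring and 0.0053 with array weights, and Sox10 at 0.096 and Egr2 at -0.062 without the arrays with liver transcripts or with a block for them. Without each array in turn, the range in IL-8 against vehicle was -0.10 to 0.086 for Mbp, -0.15 to 0.35 for Pmp22 and -0.16 to 0.016 for Mag. In KC against vehicle it was -0.14 to 0.056 for Mbp, -0.33 to 0.18 for Pmp22, -0.15 to 0.071 for S100b and -0.11 to 0.070 for Mag. In IL-8 against KC it was -0.061 to 0.14 for Mbp, -0.062 to 0.096 for Sox10, -0.091 to 0.0024 for Mag and -0.067 to 0.11 for Egr2. The values are array brightness without detection calls, and 4 of the 6 genes are dim, which limits what a small difference can show.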
